A study of Mus musculus with 20 samples.

Results

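Gene expression was compared between cortical lysates of mice with a heterozygous Foxp2 deletion and of wild-type mice, with 1 value per animal in 10 animals, 5 of each genotype. These values came from 12 of the 20 libraries of the series, the Input libraries, which hold RNA of whole lysate set aside before GFP-tagged ribosomes were pulled down (bacTRAP, which gives the IP libraries). All animals were 3 months old and C57BL/6, and basal ganglia, diencephalon, hippocampus and the rostral tip had been dissected away from the cortex. The wild types were wt734, wt736, wt785, wtBT13 and wtBT14, and the heterozygotes were het729, het730, het786, hetBT13 and hetBT14. Values of all animals are given in this order. Names differ in form (BT or number only), with 3 number-only and 2 BT animals in each genotype, and this form was a covariate. The lysates of het730 and hetBT14 are each present as 2 libraries ending in IX and IXX, a suffix the sources used here do not explain, and their counts were summed. The series title names a cortical deletion, but the sources used here do not state the driver line, the deleted exons or the cells that carry the GFP tag.

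Foxp2 encodes a forkhead transcription factor that mostly represses its targets. In the cortex it marks deep-layer neurons, above all the corticothalamic cells of layer 6, and outside the cortex it is made in medium spiny neurons of the striatum and in Purkinje cells. Its relatives Foxp1 and Foxp4 can form dimers with it. Whole lysate pools RNA of neurons, glia and vessels, so a gene used by few cells contributes little to it.

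Foxp2 was lower in heterozygotes. The gene (ENSMUSG00000029563) lies on chromosome 6 from 14901349 to 15441977 in mm10. It stood at 36.0, 39.5, 37.4, 59.2 and 48.0 CPM in wild types and 22.6, 25.3, 26.8, 28.8 and 26.2 CPM in heterozygotes. These are CPM, read counts scaled to a common library size with TMM factors. Every heterozygote was below every wild type, and the BT wild types were the highest. The means were 44.0 ± 9.67 CPM in wild types and 25.9 ± 2.25 CPM in heterozygotes (SD, n = 5 each), so heterozygotes had 59.0% of the wild-type level. The difference of mean log2 CPM was -0.74 (two-sided exact permutation test within each form of name, 120 regroupings, p = 0.0167, the smallest this design can give). In the fit over all genes the log2 fold change was -0.76 with a standard error (SE) of 0.11 (edgeR quasi-likelihood test, Benjamini-Hochberg adjusted p = 0.00578). The count is per gene, so it includes any transcript that lost only some of its exons.

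The size of the Foxp2 difference varied less than its adjusted p. Within number-only animals the log2 fold change was -0.60 (edgeR, adjusted p = 0.0888) and within BT animals -0.997 (adjusted p = 0.0295). In a separate fit of all animals, the difference of the genotype effect between the forms was -0.43 and missed the threshold (edgeR interaction term, adjusted p = 0.752). Without the IX and IXX libraries, 3 heterozygotes against 5 wild types gave -0.70 (edgeR, adjusted p = 0.114, exact permutation over all 8 animals p = 0.0179, within form of name p = 0.0333, the smallest its 30 regroupings can give). Without wtBT13, the animal with the most Foxp2, it was -0.66 (edgeR, adjusted p = 0.0684). Without the covariate for form of name the adjusted p was 0.135 at a log2 fold change of -0.77. Taken singly, the IX and IXX libraries gave 26.0 and 24.9 CPM in het730 and 26.9 and 24.9 CPM in hetBT14, all below the lowest wild type.

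**Figure D1:**
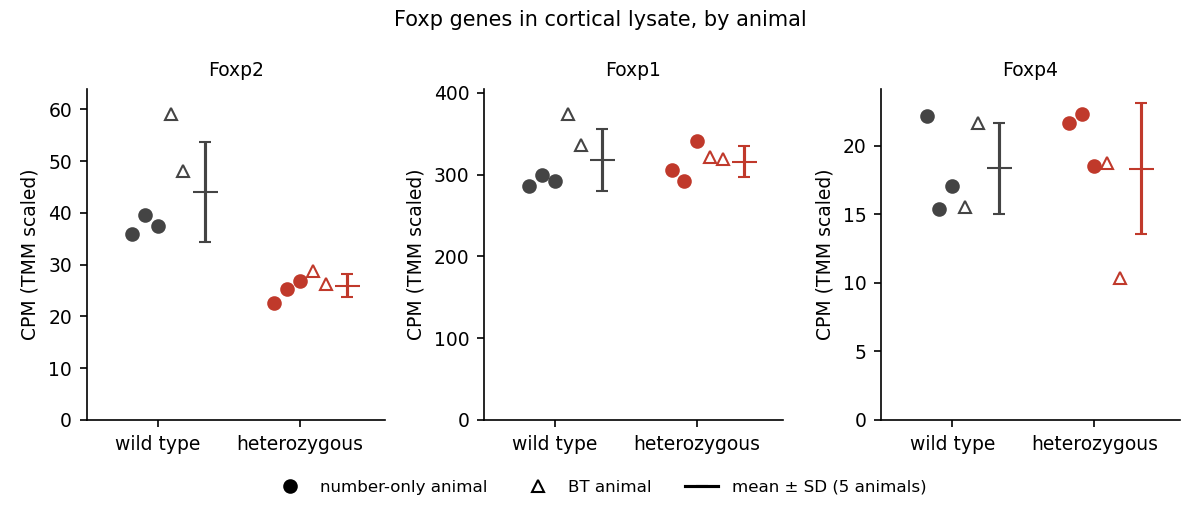
Levels of Foxp2, Foxp1 and Foxp4 in cortical lysate, in TMM-scaled CPM on the y axis, by genotype on the x axis; each point is 1 animal (filled circles number-only, open triangles BT) and the bar beside each group is the mean ± SD of 5 animals. Foxp2 runs from 22.6 to 28.8 CPM in heterozygotes and from 36.0 to 59.2 CPM in wild types, while the genotypes overlap for Foxp1 and Foxp4.

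Foxp1 and Foxp4 overlapped between genotypes. Foxp1, made in many cortical neurons, had 286, 299.9, 292, 375 and 337 CPM in wild types and 306, 292, 341, 321 and 319.5 CPM in heterozygotes (log2 fold change 0.00, SE 0.07, edgeR, adjusted p = 0.991). Foxp4 had 22.2, 15.4, 17.1, 15.5 and 21.7 CPM in wild types and 21.7, 22.4, 18.5, 18.7 and 10.4 CPM in heterozygotes (log2 fold change -0.05, SE 0.17, adjusted p = 0.938). The animal hetBT14 was the lowest of all 10 for Foxp4.

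Genes linked to Foxp2 by cell type or by earlier work missed the threshold. Ntsr1, a neurotensin receptor of layer 6 corticothalamic cells, was scarce at 4.26 ± 0.728 CPM in wild types and 3.29 ± 0.906 CPM in heterozygotes (log2 fold change -0.30, edgeR, adjusted p = 0.660). Drd1, the D1 dopamine receptor, had 48.0 ± 8.62 and 47.0 ± 8.72 CPM (log2 fold change -0.01), and Cntnap2, a neurexin-like adhesion protein, had 45.1 ± 4.57 and 40.7 ± 7.49 CPM (log2 fold change -0.12). Apba2, the presynaptic adaptor Mint2, had 146, 117 and 123 CPM in number-only wild types and 93.8, 87.0 and 101 CPM in number-only heterozygotes, which did not overlap. In the BT animals it had 136 and 120.3 CPM in wild types and 130.3 and 146 CPM in heterozygotes, which did. Its log2 fold change was -0.46 in number-only and 0.09 in BT animals, and -0.23 over all 10 (edgeR, adjusted p = 0.402).

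Layer 6 corticothalamic genes other than Foxp2 had small differences that missed the threshold. Of 10 such genes tested, 8 had a higher and 2 (Ntsr1 and Sulf1) a lower estimate, with a median log2 fold change of 0.08, and 0.04 to 0.10 with 1 animal left out. Tle4, a corepressor of that layer, had 43.4, 40.8, 38.8, 43.4 and 40.1 CPM in wild types and 49.2, 51.5, 48.3, 48.3 and 50.8 CPM in heterozygotes. All its heterozygotes lay above all wild types, but it missed the threshold (log2 fold change 0.27, SE 0.09, edgeR, adjusted p = 0.296). The summed level of these genes was 548 to 613 CPM in wild types and 579 to 664 CPM in heterozygotes. In bulk lysate, fewer cells of a type and less RNA per cell cannot be told apart.

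Over all genes, 2 of 14085 had an adjusted p below 0.05, or 0.0142% (edgeR). Besides Foxp2 this was Rpl9-ps6 (chromosome 19, 32465865 to 32466578), a copy of the ribosomal protein gene Rpl9. It had 69.9, 66.2, 91.3, 55.3 and 65.0 CPM in wild types and 118, 114, 107, 82.7 and 91.1 CPM in heterozygotes. Within each form of name all heterozygotes were above all wild types, although wt785 reached the BT heterozygotes. The log2 fold change was 0.56 (SE 0.09, edgeR, adjusted p = 0.0124). Rpl9 and its copies have nearly the same sequence, so the level of any single copy is uncertain. Its call was lost without wt734, wt736, wtBT13 or het730 (edgeR, adjusted p from 0.0515 to 0.107).

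Other settings called other numbers of genes. Without the IX and IXX libraries 0 of 14203 genes passed, or 0.0% (edgeR, 1533 at an unadjusted p below 0.05). Without wtBT13 0 passed as well, with 1268 at that p. DESeq2 called 13 genes, among them Junb, Lifr, Dusp6, Slc1a2, Rpl37a and Rpl9-ps6, and gave Foxp2 a log2 fold change of -0.76 but no adjusted p. Limma-voom called 5, which were Foxp2, Rpl9-ps6, Junb, Arc and Nr4a1.

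Below the adjusted threshold, 904 genes had an unadjusted p below 0.05 and a higher level in heterozygotes, or 6.42% of those tested, and 686 a lower level, or 4.87%. The genotypes did not overlap within either form of name for 397 higher genes (2.82%) and 203 lower genes (1.44%). Counts of list members are read against these shares, and no list member other than Foxp2 was called in the main test. Members of a list can vary together between the same animals, so their counts describe a list and do not test it. With 1 animal left out, the count of 904 ran from 674 (without wtBT13) to 1002 (without het729). That of 686 ran from 496 (without het730) to 939 (without hetBT14).

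Among genes with a mean of at least 5 CPM, the lower genes of smallest p after Foxp2 were Lifr, Gprc5b, Junb, Slc43a2, Dusp6, Zfp334 and Scd1, all above the threshold (edgeR, adjusted p from 0.0799 to 0.182). Lifr, the receptor of leukaemia inhibitory factor, had 89.3, 92.7, 72.6, 121 and 103 CPM in wild types and 72.1, 49.8, 69.0, 63.6 and 66.9 CPM in heterozygotes. All heterozygotes were below all wild types, het729 just below wt785 (log2 fold change -0.57, SE 0.11). Slc43a2, an amino acid transporter, had 37.1 ± 5.62 CPM in wild types and 25.5 ± 3.88 CPM in heterozygotes, and the zinc finger gene Zfp334 had 35.3 ± 6.46 and 24.7 ± 2.56 CPM. Both separated all 10 animals by genotype. Gprc5b, an orphan G protein-coupled receptor, had 23.7 ± 3.02 and 15.9 ± 3.92 CPM and separated within each form of name. Scd1, a fatty acid desaturase, had 40.8 ± 3.98 and 28.0 ± 5.47 CPM and overlapped in the BT animals.

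Among the higher genes of smallest p were pseudogenes. Rpl9-ps7, another copy of Rpl9, and Gm7206, both annotated as processed pseudogenes, had log2 fold changes of 0.51 and 0.55 (edgeR, adjusted p = 0.123 for each). Crls1, the cardiolipin synthase of mitochondria, had 10.5, 10.1, 10.0, 9.30 and 11.1 CPM in wild types and 15.8, 18.7, 12.2, 16.1 and 20.7 CPM in heterozygotes. Its genotypes did not overlap (log2 fold change 0.75, SE 0.15, adjusted p = 0.123). Kctd6, an adaptor of a ubiquitin ligase, had 37.4 ± 5.88 CPM in wild types and 54.7 ± 6.82 CPM in heterozygotes, also without overlap, although het729 at 43.3 CPM was close to wtBT13 at 43.2 CPM. ENSMUSG00000081535, ENSMUSG00000063427 and Gm24187 had log2 fold changes of 0.43, 0.48 and 0.72 (adjusted p from 0.158 to 0.182). The first pair has no gene name in the tables used here.

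Immediate early genes, which neurons switch on rapidly after activity, had lower estimates in heterozygotes. Of 23 tested, 18 had a lower and 5 a higher estimate, and 11 lower and 0 higher members had an unadjusted p below 0.05. For 8 members, all lower, the genotypes did not overlap within either form of name: Dusp6, Per1, Fos, Arc, Nr4a1, Dusp1, Junb and Ier2. The median log2 fold change was -0.29, against 0.00 over all genes. Upstream sequences of Junb, Dusp1 and Fos are shown to set their letters beside the values. Each is the 250 bases before the start (RefSeq, GRCm38.p6), with searched motifs in capitals, forkhead TGTTTAC in Junb and CRE TGACGTCA in Dusp1.
Junb: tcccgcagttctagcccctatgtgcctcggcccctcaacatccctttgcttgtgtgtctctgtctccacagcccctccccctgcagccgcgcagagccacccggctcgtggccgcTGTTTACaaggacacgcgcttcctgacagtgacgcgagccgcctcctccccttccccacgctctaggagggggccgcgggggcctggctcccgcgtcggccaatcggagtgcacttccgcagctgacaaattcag
Dusp1: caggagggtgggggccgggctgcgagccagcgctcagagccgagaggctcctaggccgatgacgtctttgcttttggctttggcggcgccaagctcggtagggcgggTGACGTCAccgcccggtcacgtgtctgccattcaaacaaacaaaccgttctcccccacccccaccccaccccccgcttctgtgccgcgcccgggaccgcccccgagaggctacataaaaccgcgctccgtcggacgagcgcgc
Fos: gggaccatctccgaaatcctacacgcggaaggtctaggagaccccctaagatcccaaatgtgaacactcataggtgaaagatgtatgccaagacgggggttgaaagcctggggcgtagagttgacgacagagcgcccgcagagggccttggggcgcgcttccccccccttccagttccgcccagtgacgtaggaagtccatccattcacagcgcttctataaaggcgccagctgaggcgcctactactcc

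These windows are chr8:84978749-84978998 on the minus strand (Junb), chr17:26508473-26508722 on the minus strand (Dusp1) and chr12:85473640-85473889 on the plus strand (Fos). Both strands of the 250 bases before and 50 bases after each start were searched for the forkhead letters TGTTTAC, for the variants TATTTAT or else TATTTGT, for the CRE (TGACGTCA, the site of CREB) and for the CArG box of serum response factor. Of the 8 non-overlapping immediate early genes 6 had a window. A forkhead motif was in 1 of 6 (Junb, 135 bases before the start) and in 11.8% of all 32851 windows. The CRE was in 1 of 6 (Dusp1, 143 bases before the start) and in 1.79% of all windows, and the CArG box in 0 of 6 and in 1.63%. A match describes letters, not a bound site, and the CRE and CArG searches were added after the values were seen. Only exact letters inside the windows were counted, so a missing match does not show that a gene lacks such a site. A gene counted if any of its windows matched, while the percentages are per window.

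Junb, a subunit of the transcription factor AP-1, had 97.5, 75.04, 95.9, 146 and 94.0 CPM in wild types and 71.4, 44.9, 44.1, 67.0 and 53.9 CPM in heterozygotes. Every heterozygote was below every wild type (log2 fold change -0.86, SE 0.16, edgeR, adjusted p = 0.149). Dusp6, a phosphatase of the kinase ERK, had 114, 122, 142, 228 and 199.9 CPM in wild types and 113, 89.9, 112, 152 and 124 CPM in heterozygotes. The BT animals of each genotype were higher than the number-only ones, and heterozygotes were below wild types within each form (log2 fold change -0.43, adjusted p = 0.182). Ier2, a nuclear protein, had 25.5, 23.2, 21.9, 41.6 and 25.8 CPM in wild types and 19.7, 8.71, 7.29, 23.2 and 15.0 CPM in heterozygotes (log2 fold change -0.96, adjusted p = 0.209). Its only overlap was across the forms of name, between hetBT13 and wt785 or wt736.

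Arc, a synaptic protein whose RNA travels to active dendrites, had 128, 115, 145, 444 and 299.5 CPM in wild types and 114, 37.0, 42.9, 193 and 88.2 CPM in heterozygotes. The BT wild types stood highest, and het729 lay just under the number-only wild types. Fos, another AP-1 subunit, had 46.7, 42.8, 48.5, 133 and 60.0 CPM in wild types and 41.3, 14.8, 19.4, 47.5 and 31.2 CPM in heterozygotes. Nr4a1, an orphan nuclear receptor, had 85.8, 126, 105, 308 and 177 CPM in wild types and 81.5, 31.7, 55.3, 116 and 49.2 CPM in heterozygotes. In Arc, Fos and Nr4a1 wtBT13 was the highest animal, hetBT13 the highest heterozygote, and the genotypes did not overlap within a form of name. Their log2 fold changes were -1.21 (SE 0.38), -1.11 (SE 0.35) and -1.24 (SE 0.37), with adjusted p from 0.332 to 0.334 (edgeR). Arc, Fos, Nr4a1 and Dusp1, the last with a log2 fold change of -0.78, lie outside the naming rule and were chosen after their values were seen.

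Other members overlapped. Egr1, an abundant zinc finger factor, had 436, 395, 611, 862 and 527 CPM in wild types and 417, 365, 490.3, 489 and 532 CPM in heterozygotes, and only wtBT13 and wt785 were above all heterozygotes (log2 fold change -0.29). Npas4, a factor induced by neuronal activity, had 5.47 ± 2.50 and 4.58 ± 2.95 CPM. Summed over the list, the level was 1450 to 2950 CPM in wild types and 1100 to 1670 CPM in heterozygotes. Leaving out 1 animal at a time gave medians from -0.37 to -0.27 and 7 to 13 lower members at an unadjusted p below 0.05, with 7 without het730. Without the IX and IXX libraries there were 6, with a median of -0.29. Over all genes the lower count was 496 without het730 and 679 without the IX and IXX libraries, against 686 in the main test. Handling and time of day before death were not tested.

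**Figure D2:**
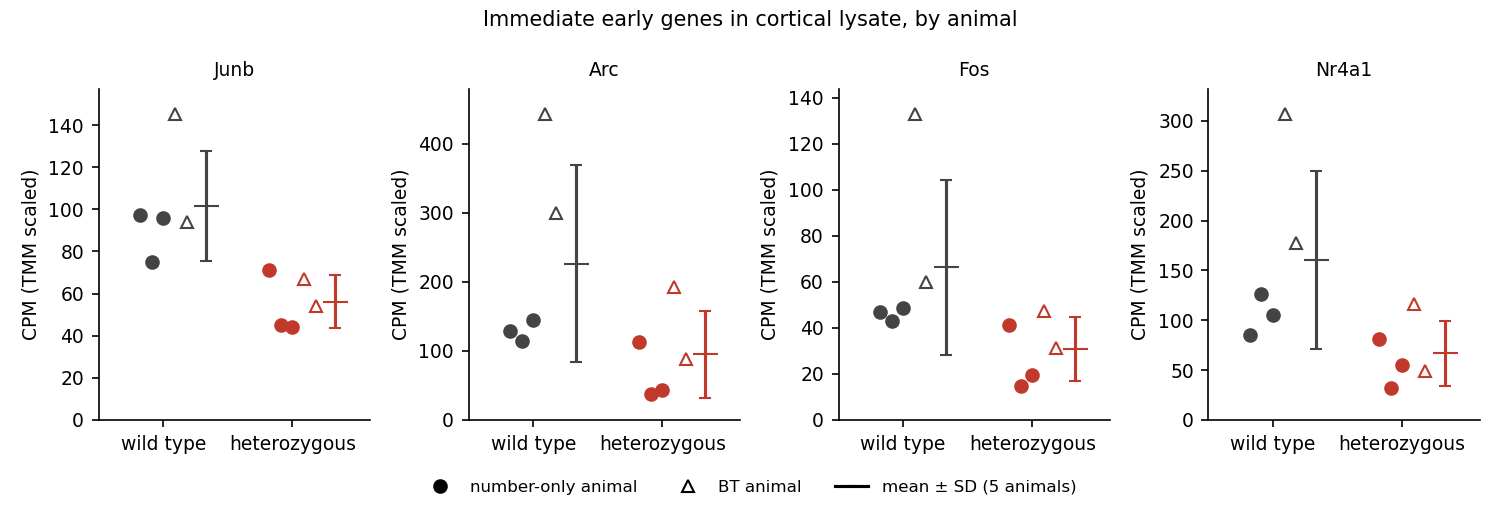
Levels of Junb, Arc, Fos and Nr4a1 in cortical lysate, in TMM-scaled CPM on the y axis, by genotype on the x axis; each point is 1 animal (filled circles number-only, open triangles BT) and the bar is the mean ± SD of 5 animals. Heterozygotes lie below wild types among circles and among triangles, and wtBT13 is the highest point of each panel (Arc at 444 CPM).

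Ribosomal protein genes had higher estimates in heterozygotes with 1 exception, Rpl28. Of 77 tested, 76 had a higher estimate, 57 of them at an unadjusted p below 0.05. For 26 the genotypes did not overlap within either form of name. The median log2 fold change was 0.27, with members from -0.07 to 0.50. Upstream sequences of Rpl6 and Rpl37a, of the large subunit, are shown as those of members with the smallest p (RefSeq, GRCm38.p6, 250 bases before the start), and no searched motif is in them.
Rpl6: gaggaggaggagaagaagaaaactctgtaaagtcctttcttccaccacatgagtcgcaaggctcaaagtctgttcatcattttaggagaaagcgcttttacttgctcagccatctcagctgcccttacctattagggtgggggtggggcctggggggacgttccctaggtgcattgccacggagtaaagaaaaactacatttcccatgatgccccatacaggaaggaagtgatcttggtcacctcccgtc
Rpl37a: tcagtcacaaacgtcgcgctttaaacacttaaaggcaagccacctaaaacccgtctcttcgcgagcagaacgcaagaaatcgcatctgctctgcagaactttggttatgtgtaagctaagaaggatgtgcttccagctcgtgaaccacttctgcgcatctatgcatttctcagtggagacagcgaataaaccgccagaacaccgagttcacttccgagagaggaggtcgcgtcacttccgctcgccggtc

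These windows are chr5:121204251-121204500 on the plus strand (Rpl6) and chr1:72711010-72711259 on the plus strand (Rpl37a). Of the 26 non-overlapping members 14 had a window, and 1 of 14 (Rpl41) held a forkhead motif, beside 11.8% of all windows.

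Rpl37a had 57.4, 64.2, 69.1, 28.7 and 41.0 CPM in wild types and 80.2, 78.9, 75.1, 51.3 and 68.5 CPM in heterozygotes. Rpl6 had 81.4, 93.4, 84.8, 54.8 and 64.4 CPM in wild types and 106, 97.3, 99.4, 86.1 and 86.2 CPM in heterozygotes. For both, heterozygotes were above wild types within each form of name, and the BT wild types were the lowest of the 10 animals. Their log2 fold changes were 0.49 and 0.34 (edgeR, adjusted p = 0.182 and 0.206). Rps18, of the small subunit, had 26.5 ± 5.66 and 35.5 ± 6.37 CPM and overlapped in number-only animals (log2 fold change 0.44, adjusted p = 0.250).

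Nuclear genes of oxidative phosphorylation, which build the respiratory chain and ATP synthase, had smaller but uniform differences. All 78 tested had a higher estimate, 55 of them at an unadjusted p below 0.05, and 28 did not overlap within either form of name. The median log2 fold change was 0.18. Ndufa2, of complex I, had 217, 223, 241, 179 and 198 CPM in wild types and 279, 271, 279, 200.3 and 238 CPM in heterozygotes. Within each genotype the BT animals were the lowest (log2 fold change 0.26, edgeR, adjusted p = 0.251). Ndufa6 of complex I and Cox6b1 of complex IV had log2 fold changes of 0.22 and 0.25 (adjusted p = 0.289 for each). The 13 genes that mitochondria encode had a median of 0.01, with 0 at an unadjusted p below 0.05.

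Proteasome and tubulin genes also had mostly higher estimates. Of 36 proteasome genes 32 were higher by estimate and 9 reached an unadjusted p below 0.05, with a median of 0.10. Psmb4, Psmb7 and Psma1, of the core particle, had log2 fold changes of 0.21, 0.19 and 0.18 (edgeR, adjusted p from 0.306 to 0.341). Of 14 tubulin genes 13 were higher by estimate and 7 reached that p, with a median of 0.17. Tubb5, a beta-tubulin, had 798, 808, 883, 753 and 816 CPM in wild types and 921, 999, 1048, 1056 and 800.4 CPM in heterozygotes. Of its heterozygotes only hetBT14 lay within the wild-type range (log2 fold change 0.25, adjusted p = 0.289). Leaving out 1 animal gave 3 to 12 proteasome genes at an unadjusted p below 0.05 (3 without wt734, 4 without wt736, 5 without het786) and 1 to 11 tubulin genes (1 without wtBT13, het730 or hetBT13). Over all genes the higher count was 757 without wt734, 746 without wt736 and 813 without het786, against 904 in the main test. It was 674 without wtBT13, 762 without het730 and 841 without hetBT13. The tubulin median was 0.09 without hetBT13 and 0.26 without the IX and IXX libraries.

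The ribosomal protein estimates were larger in BT animals, a contrast not tested for lists, and wtBT13 and hetBT14 moved the counts most. Its median was 0.15 within number-only and 0.48 within BT animals, and that of oxidative phosphorylation 0.12 and 0.21. The mean log2 CPM of ribosomal protein genes was 5.61, 5.64, 5.67, 4.89 and 5.204 in wild types and 5.79, 5.83, 5.72, 5.34 and 5.67 in heterozygotes, lowest in wtBT13 and wtBT14. Without wtBT13, 34 ribosomal protein and 31 oxidative phosphorylation genes had an unadjusted p below 0.05. Without hetBT14 these were 29 and 34, and without the IX and IXX libraries 27 and 40. The medians in these 3 settings were 0.20, 0.19 and 0.19 for ribosomal proteins and 0.16, 0.14 and 0.16 for oxidative phosphorylation. Over all genes the higher count at that p was 674, 914 and 854 in these settings, against 904 in the main test.

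**Figure D3:**
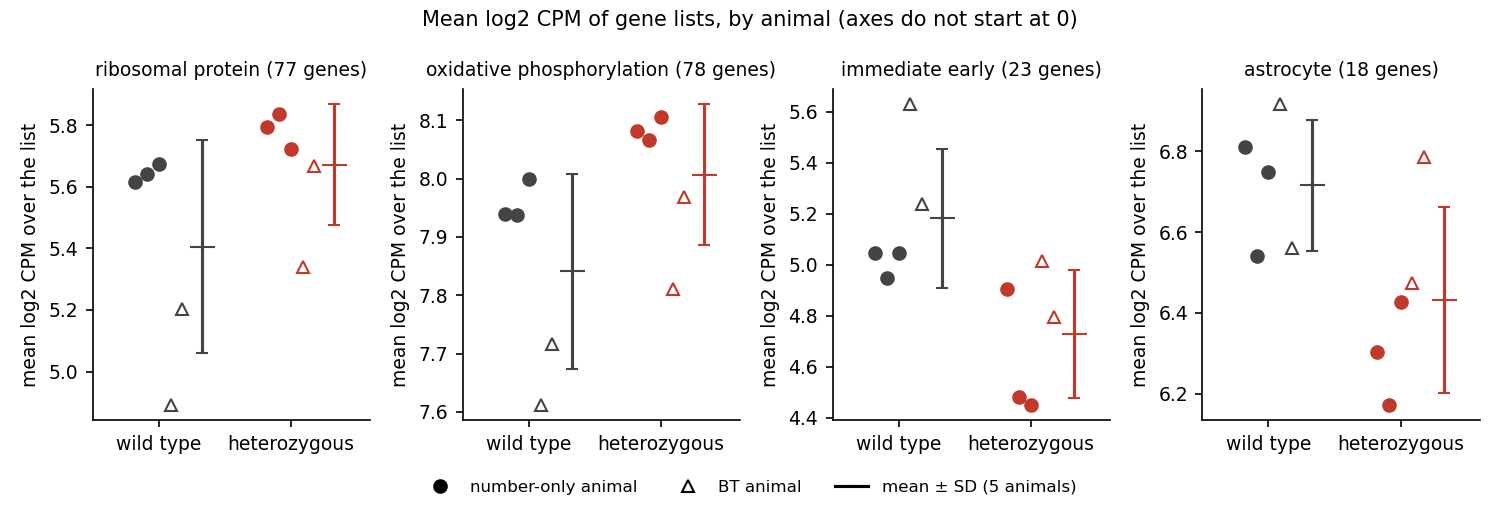
Mean log2 CPM on the y axis of 77 ribosomal protein, 78 oxidative phosphorylation, 23 immediate early and 18 astrocyte genes, by genotype on the x axis; each point is 1 animal (filled circles number-only, open triangles BT), the bar is the mean ± SD of 5 animals, and axes do not start at 0. The genotypes do not overlap among circles or among triangles in the first 3 panels, and they overlap among triangles in the astrocyte panel.

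The share of counts in long genes moved with the same animals. Genes with more than 7120 bases of exons took 19.7, 20.2, 19.5, 20.5 and 20.9% of counts in wild types and 19.2, 19.4, 19.2, 19.8 and 19.96% in heterozygotes. Heterozygotes were lower within each form of name, 19.5 ± 0.365% against 20.2 ± 0.560% (two-sided exact permutation test within form, p = 0.0167, adjusted over 4 library measures 0.0667). Tested nuclear protein-coding genes were split into 4 equal classes of exon length. From the shortest to the longest class, the median log2 fold change was 0.04, -0.02, -0.04 and -0.04. In the shortest class 328 of 3009 genes were higher and 93 lower at an unadjusted p below 0.05 (edgeR). Without ribosomal protein and oxidative phosphorylation genes these were 237 and 93 of 2888. In the longest class 52 of 3008 were higher and 200 lower. The median exon length was 1781 bases in the ribosomal protein list, 1737 in the oxidative phosphorylation list, 3398 in the immediate early list and 4139 over all genes tested.

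With that share as a second covariate, chosen after seeing the data, 29 ribosomal protein and 10 oxidative phosphorylation genes had an unadjusted p below 0.05, with medians of 0.34 and 0.17. Immediate early genes had 10 lower members at that p and a median of -0.60. Tubulin genes had 0 and proteasome genes 1 at that p, with medians of 0.22 and 0.07. Foxp2 had a log2 fold change of -0.73 (edgeR, adjusted p = 0.247), and 0 genes were called (1391 at an unadjusted p below 0.05). The share is computed from the same counts and differs by genotype within each form of name. This fit therefore cannot separate the share from genotype. Fewer calls or moved medians in it, here and in the lists below, are not read as an effect of gene length. The part of RNA quality in this share was not tested.

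Astrocyte genes had lower estimates, chiefly in number-only animals. Of 18 tested, 17 were lower by estimate and 9 reached an unadjusted p below 0.05, but 0 separated the genotypes within both forms of name. The median log2 fold change was -0.33, with -0.46 in number-only and -0.12 in BT animals. Slc1a2, the main glutamate transporter of astrocytes, had 477, 376, 394, 499.6 and 391 CPM in wild types and 311, 281, 319, 303 and 421 CPM in heterozygotes. Only hetBT14 reached the wild-type range (log2 fold change -0.39, edgeR, adjusted p = 0.198). Ntsr2, a neurotensin receptor of astrocytes, had 96.1 ± 13.6 and 75.6 ± 16.3 CPM, and Aqp4, the water channel of their endfeet, 48.8 ± 12.9 and 36.2 ± 2.83 CPM (adjusted p = 0.298 for each).

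The summed astrocyte level was 3070 to 3840 CPM in wild types and 2590 to 3440 CPM in heterozygotes. Leaving out 1 animal gave medians from -0.47 to -0.23 and 4 to 13 lower members at an unadjusted p below 0.05, with 4 without wt785, het729 or het730 and 5 without wt734. Over all genes the lower count was 694, 778 and 496 without wt785, het729 and het730, and 505 without wt734. It was 686 in the main test. With the long-gene share as a covariate the astrocyte median was -0.58. The part of astrocyte content in the values of other genes was not tested.

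Over all animals, the other glial, vascular and striatal lists had smaller median differences than astrocyte genes, and some markers differed in single animals. In number-only animals the microglial median was lower than the astrocyte one. Microglial genes had a median of -0.27, with 13 of 15 lower by estimate and 3 (Fcrls, Trem2 and C1qa) at an unadjusted p below 0.05. Their median was -0.59 in number-only and 0.23 in BT animals, and 0 members reached that p without het730 and 9 without hetBT14. Over all genes the lower count at that p was 496 without het730 and 939 without hetBT14, against 686 in the main test. The microglial median was -0.11 without het730, -0.14 without wt734, -0.42 without hetBT14 and -0.58 with the long-gene share as a covariate. Endothelial genes were lower by estimate in 4 of 5 and oligodendrocyte precursor genes in 6 of 7, with medians of -0.198 and -0.118. In number-only animals these medians were -0.397 and -0.312, in BT animals 0.015 and 0.171, and with the long-gene covariate -0.361 and -0.655. In each list 1 member, a lower one, had an unadjusted p below 0.05. Oligodendrocyte genes had a median of -0.04 and striatal genes, some of which cortical neurons also express, 0.09, with 0 of 15 and 0 of 12 at an unadjusted p below 0.05. With 1 animal left out these medians ran from -0.16 to 0.00 and from 0.05 to 0.16, and with the long-gene covariate they were -0.27 and 0.21. Hbb-bs, a beta-globin of blood, had 543 CPM in het729 and 783 CPM in het730, against 57.1 to 106 CPM in the other animals. Ttr, the transthyretin of choroid plexus, had 101 CPM in wtBT13, 96.0 CPM in het786 and 25.8 CPM in hetBT13, against 1.51 to 8.13 CPM elsewhere.

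Ion channel and receptor genes had lower estimates in number-only animals. Of 40 ion channel genes 34 were lower by estimate, 6 of them and 1 higher gene at an unadjusted p below 0.05, with a median of -0.13. Cacna1d, a pore subunit of L-type calcium channels, had 8.68, 9.32, 6.23, 8.01 and 6.15 CPM in wild types and 5.66, 5.92, 5.78, 3.74 and 3.94 CPM in heterozygotes. Its genotypes did not overlap (log2 fold change -0.63, SE 0.19, edgeR, adjusted p = 0.289). Scn8a, a sodium channel, and Kcna1, a potassium channel, had log2 fold changes of -0.25 and -0.22 (adjusted p = 0.298 and 0.324). The lower count was 3 without wt734, 14 without hetBT14 and 11 without the IX and IXX libraries. Over all genes it was 505, 939 and 679 in these settings, against 686 in the main test. The ion channel median was -0.21 without hetBT14.

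Of 22 glutamate receptor genes 17 were lower by estimate, with a median of -0.15, and of 14 GABA receptor genes 12, with a median of -0.14. The GABA receptor median was -0.07 without wt736 and -0.07 without wtBT14. In each list 2 members had an unadjusted p below 0.05, all lower. Gria1, an AMPA receptor subunit, had 125, 136, 133, 148 and 146 CPM in wild types and 122, 121, 101, 123 and 118 CPM in heterozygotes. Its genotypes did not overlap, and het786 was the lowest (log2 fold change -0.23, SE 0.07, edgeR, adjusted p = 0.295). Gabbr2, a subunit of the GABA-B receptor, had 126, 125, 126, 123 and 119 CPM in wild types and 94.5, 92.7, 91.8, 116 and 124 CPM in heterozygotes. Only the number-only heterozygotes stood clearly apart (log2 fold change -0.26, adjusted p = 0.289).

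Axon guidance and adhesion genes were lower by estimate in 38 of 47, 8 of them at an unadjusted p below 0.05, with a median of -0.11. The median was -0.21 without hetBT14 and -0.23 without the IX and IXX libraries. Unc5d, a netrin receptor, had 24.2 ± 2.13 CPM in wild types and 18.9 ± 0.896 CPM in heterozygotes and separated all 10 animals (log2 fold change -0.34, edgeR, adjusted p = 0.298). Cntn2, a contactin, and Plxna2, a semaphorin receptor, had log2 fold changes of -0.36 and -0.27. Genes of cholesterol synthesis and desaturases were lower by estimate in 22 of 27, 9 of them at that p, with a median of -0.12, and the count was 5 without wt734, wt785 or het730. With the long-gene share as a covariate their median was -0.25. Over all genes the lower count was 505, 694 and 496 without wt734, wt785 and het730, against 686 in the main test. Insig1, a brake on sterol synthesis, and Sqle, a sterol enzyme, had log2 fold changes of -0.24 and -0.26.

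In number-only animals the medians of the ion channel, glutamate receptor, GABA receptor, axon guidance and cholesterol lists were -0.26, -0.24, -0.16, -0.16 and -0.18. In BT animals they were 0.01, -0.01, -0.03, 0.01 and -0.04. The difference between the forms was not tested for lists. The median exon length was 9812 bases in the ion channel, 8778 in the axon guidance and 7184 in the glutamate receptor list, each within the class of longest genes. Over all animals that class had a median of -0.04. At an unadjusted p below 0.05, 52 of its 3008 genes were higher and 200 lower (edgeR). With the long-gene share as a covariate the medians of these lists were -0.11, -0.13 and -0.11. The part of gene length in their values was not tested.

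**Figure D4:**
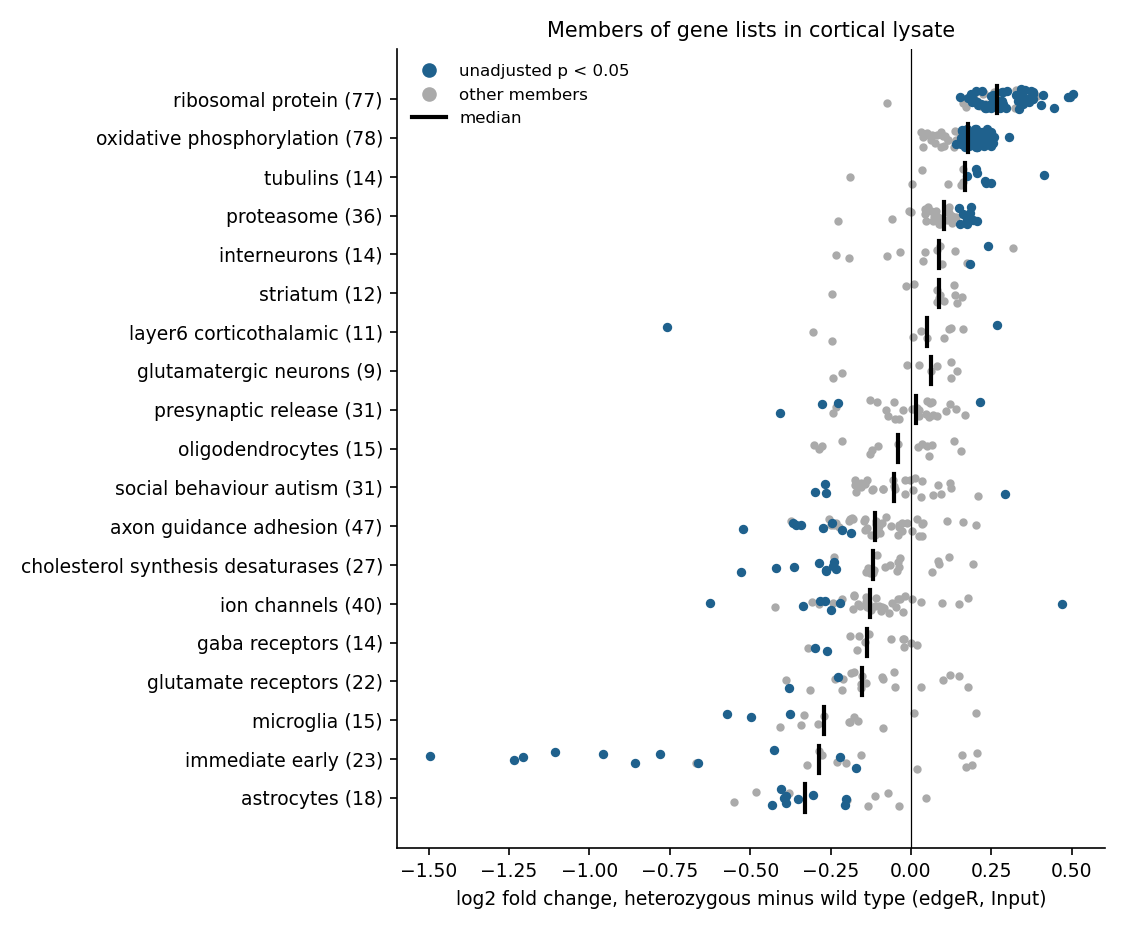
Log2 fold change (heterozygous minus wild type, edgeR, lysate) on the x axis for the tested members of 19 gene lists on the y axis, with the number of members in brackets; each point is 1 gene (blue at an unadjusted p below 0.05, grey otherwise) and the bar is the median. The median is 0.27 for ribosomal protein, -0.29 for immediate early and -0.33 for astrocyte genes.

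Few genes passed within a form of name. In number-only animals (3 against 3) 3 of 13779 genes passed, or 0.0218% (edgeR), and all were lower in heterozygotes: Scd1, Gm2a and Gja1. Gm2a, an activator of ganglioside breakdown, had 90.6, 84.9 and 78.6 CPM in number-only wild types and 60.3, 53.1 and 53.5 CPM in number-only heterozygotes. Gja1, the astrocyte connexin 43, had 119, 92.9 and 126 CPM and 69.6, 56.7 and 73.0 CPM. In BT animals both overlapped, Gm2a at 92.0 and 64.4 CPM in wild types and 73.8 and 85.6 CPM in heterozygotes. In number-only animals 0 genes were called without wt734 or without het730 (edgeR, 1065 and 1231 at an unadjusted p below 0.05).

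In BT animals (2 against 2) 7 of 13600 genes passed, or 0.0515% (edgeR). Foxp2, Junb, Lifr and Ddi2 were lower, and Elmod1, Rn7s6 and ENSMUSG00000063427 were higher. Ddi2, a protease, had 79.3 and 65.3 CPM in wild types and 41.5 and 38.0 CPM in heterozygotes. Rn7s6, a 7S RNA of the signal recognition particle, had 33.3 and 60.9 CPM and 107 and 96.6 CPM, while all number-only animals were higher. Without wtBT13, 1 of the 7 was still called. Genes named only for these calls were chosen after their values were seen.

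Map1a and Elmod1 were the 2 of 14406 genes, or 0.0139%, whose genotype difference differed between the forms of name (edgeR interaction term). Map1a, a microtubule-associated protein of neurons, had 131, 119.9, 126, 79.6 and 90.2 CPM in wild types and 82.0, 92.2, 104, 118 and 127 CPM in heterozygotes. Heterozygotes were below wild types in number-only animals and above them in BT animals, a difference of 0.94 on the log2 scale (adjusted p = 0.0437). Elmod1, a GTPase-activating protein, had 52.6, 48.4, 59.1, 22.2 and 24.0 CPM in wild types and 45.0, 56.2, 47.4, 50.2 and 58.5 CPM in heterozygotes. Only its BT wild types were low, and the interaction was 1.30 (adjusted p = 0.0211). Without wt734, het729 or hetBT14 the interaction called 0 genes (edgeR, 817, 840 and 791 at an unadjusted p below 0.05).

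**Figure D5:**
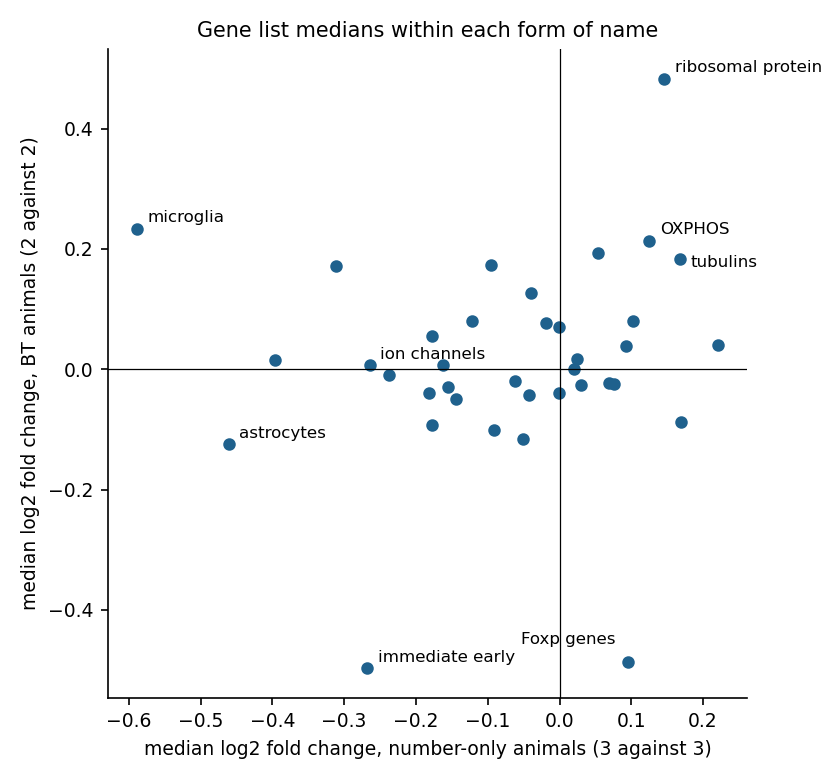
Median log2 fold change (heterozygous minus wild type) of each gene list within number-only animals (x axis, 3 against 3) and within BT animals (y axis, 2 against 2); each point is 1 list, and the blood and choroid plexus lists are left out. Ribosomal protein genes (0.15 and 0.48) and immediate early genes (-0.27 and -0.50) have the same sign in both, and microglial genes (-0.59 and 0.23) do not.

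Number-only and BT animals share no samples, so their signs can be set side by side. Of 1552 genes with an unadjusted p below 0.05 in number-only animals, 947 (61.0%) had the same sign in BT animals. Of 904 with that p in BT animals, 612 (67.7%) had the same sign in number-only animals. Over all 13416 genes tested in both, 56.2% had the same sign.

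No gene was called for a genotype difference that differed between the ribosome-bound fraction and lysate. Among 8 animals with both fractions, 0 of 15145 genes passed, or 0.0% (edgeR interaction term with animal as a block), with 482 at an unadjusted p below 0.05. Limma-voom called 0, with 460. Foxp2 in IP had 66.8, 115, 74.9, 50.6 and 79.6 CPM in wild types and 57.5, 61.6 and 35.3 CPM in het729, het786 and hetBT13. Heterozygotes were below wild types within each form of name, although het729 and het786 lay above wtBT13. Its log2 fold change in IP was -0.64. Those of Junb, Arc, Fos and Nr4a1 were -0.36, -0.59, -0.56 and -0.55, and the ribosomal protein and immediate early medians 0.07 and -0.13.

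The IP library of het729, 1 of the 3 heterozygous ones, stood apart from the other 7. It held mt-Atp8, a mitochondrially encoded RNA, at 40.1 CPM against 0.924 to 5.90 CPM, Rn7s6 at 22.1 CPM against 0.203 to 2.31 CPM, Hbb-bs at 118 CPM against 4.07 to 14.8 CPM and Ppp1r1b, the striatal phosphoprotein DARPP-32, at 469 CPM against 228 to 277 CPM. Without it, an alternative chosen after seeing the data, the log2 fold change of Foxp2 in IP was -0.66, and those of Junb, Arc, Fos and Nr4a1 were -0.64, -1.0, -0.90 and -0.66. The immediate early median was then -0.31 and the ribosomal protein median -0.01. The medians of mitochondrially encoded and blood genes in IP were 0.87 and 1.78 with it and -0.45 and -0.74 without it. Without het729 in both fractions the interaction called 0 genes (edgeR, 717 at an unadjusted p below 0.05). IP and lysate come from the same animals and are not independent.

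Totals ran from 2782934 to 9412758 counts per animal, the largest in the summed animals hetBT14 and het730. On the first principal component (24.3% of variance) the wild types stood at -6.33, -4.76, -4.75, 37.9 and 16.5, with wtBT13 and wtBT14 apart. Heterozygotes stood at -9.91, -22.7, -15.3, 10.7 and -1.28. Within each form of name all heterozygotes were below all wild types. Mitochondrially encoded RNA was 0.928% of counts in wtBT13 and 1.40 to 1.86% in the others. The IX and IXX libraries of 1 animal differed by a mean chi-square per gene of 2.82 (het730) and 2.10 (hetBT14), against 2.29 to 6.22 between animals of 1 genotype and form. The pairs of number-only wild types, at 2.29 to 2.54, differed less than the het730 pair. This measure grows with the number of counts, which differed between libraries.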

How the data were processed

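Whole-number counts per gene, which the submitters' processing notes trace to HTSeq and the build mm10, were deposited by the authors as 1 table of 25317 Ensembl identifiers in 20 libraries. The aligner, the annotation release, the versions and the strand setting are not given in the sources used here. Smart-seq2, named in the labels' protocols, marks neither strand nor molecules, so overlapping and antisense genes share reads. Cortices were processed 1 animal at a time per the labels' protocols, and p-values measure the spread between animals.

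Counts of the IX and IXX libraries were summed per animal. Names were found in GENCODE M21 for 24873 identifiers and not for 444. edgeR 4.0.16 (R 4.3.3) was used with a low-count filter (minimum of 10), TMM scaling and robust quasi-likelihood tests of genotype with the form of name as a covariate. Benjamini-Hochberg adjustment ran over all genes tested, at a threshold of 0.05. The scripts were tested on simulated data. limma 3.58.1 (voom) and DESeq2 1.42.0 were alternatives, beside other scalings, filters and animals left out. Foxp2 was also tested by exact permutation. Promoters came from RefSeq (GRCm38.p6).

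The text names Foxp2, Foxp1, Foxp4, Drd1, Ntsr1, Apba2 and Cntnap2, then per direction up to 12 called genes of largest change, filled by smallest p (mean of at least 5 CPM) to 8, then up to 3 members of smallest p per list. The members and the 39 gene lists were chosen with earlier results of these data known.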

Additional observations from a re-analysis of the deposited data

Results flagged for a closer look

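Within each genotype, the highest or lowest of the 5 animals was tested for its distance from the others (Dixon's ratio, critical value 0.71). Of 266 gene, list or library values in a genotype, 15 passed, or 5.6%, and 6 of the 15 concern wtBT13. For a single value chance gives about 1 in 20, but many of these values are related and are not independent tests.

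In wtBT13, Fos had 133.1, with the other 4 at 42.81 to 60.01 CPM. In that animal Ier2 had 41.61, with the other 4 at 21.95 to 25.76 CPM, and Zfp334 had 46.78, with the other 4 at 31.62 to 33.49 CPM. Ttr had 101.1, with the other 4 at 1.511 to 8.131 CPM there. The mean log2 CPM in wtBT13 was 3.931, with the other 4 at 4.094 to 4.138 for axon guidance genes. For tubulin genes it was 8.019, with the other 4 at 8.174 to 8.227.

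Among the other wild types, ENSMUSG00000081535 had 120.1, with the other 4 at 78.75 to 88.89 CPM, the high animal being wt785. Scn8a in wt734 had 139.3, with the other 4 at 107.5 to 116.6 CPM. The mean log2 CPM of upper-layer genes in wtBT14 was 5.682, with the other 4 at 5.58 to 5.596, and that of proteasome genes in wt785 was 7.308, with the other 4 at 7.196 to 7.22.

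Among the heterozygotes, Slc1a2 in hetBT14 had 421.2, with the other 4 at 280.6 to 318.8 CPM. Gria1 in het786 had 101.2, with the other 4 at 118.2 to 123.2 CPM, and Ttr in het786 had 96.05, with the other 4 at 1.97 to 25.83 CPM. The mean log2 CPM of the Foxp genes in hetBT14 was 5.483, with the other 4 at 5.741 to 5.811, and that of genes tied to social behaviour and autism in hetBT13 was 5.346, with the other 4 at 5.466 to 5.512.

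The genotype difference of Map1a differed between number-only and BT animals by 0.938 on the log2 scale, and that of Elmod1 by 1.305 (edgeR interaction term, adjusted p = 0.0437 and 0.0211).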

How the results depend on the processing

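Over all animals 2 genes were called. The count was 0 without the covariate (edgeR, 956 at an unadjusted p below 0.05), 0 without the IX and IXX libraries, 0 with the long-gene share as a covariate, 105 with no low-count filter, 13 by DESeq2 and 5 by limma-voom. It stayed at 2 with RLE or upper quartile scaling, a count minimum of 50, or only 1 of the IX and IXX libraries, and was 3 without robust estimation. Leaving out 1 animal gave 0 (without wtBT13) to 14 (without wtBT14). In number-only animals the main count was 3, with 152 unfiltered, 24 by DESeq2, and 0 to 47 with 1 animal left out. In BT animals it was 7, with 39 unfiltered, 1 by DESeq2, and 9 to 81 with 1 animal left out, where the lone animal is assumed to vary like the others. The interaction with form of name called 2 genes, 48 unfiltered, 12 by DESeq2, and 0 to 11 with 1 animal left out. The interaction with fraction called 0 genes, and 11 unfiltered. Unfiltered fits test more genes of few counts, and the cause of the other shifts was not tested.

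BT13 and BT14 occur in both genotypes. Across genes, the BT13 minus BT14 difference in heterozygotes and that in wild types correlated at -0.007. Each difference rests on single animals, so whether same-numbered animals share more than a number was not tested. With BT13 and BT14 as a replicate block 21 genes were called in BT animals and 3 over all animals.

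The Foxp2 difference in mean log2 CPM lay between -0.78 and -0.66 in each setting of its permutation test. Medians of gene lists moved by less than the spread between animals in 878 pairs of list and setting and by more in 19. Genes at a few CPM are imprecise at these depths.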

Other observations

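Inhibitory interneuron genes had higher estimates in 10 of 14 cases, 2 of them at an unadjusted p below 0.05 and none called (edgeR). The 4 lower by estimate included Dlx5 (log2 fold change -0.23) and Vip (-0.19), with 0 of the 4 at that p. The median was 0.09 over all animals, 0.07 in number-only and -0.02 in BT animals. Gad1, the enzyme that makes GABA, had 323, 388, 366, 409.9 and 436 CPM in wild types and 383, 425, 455, 482 and 437 CPM in heterozygotes, and its genotypes overlapped (log2 fold change 0.18, adjusted p = 0.350). Pvalb, the calcium buffer of fast-spiking cells, had 116 ± 20.9 and 136 ± 23.9 CPM (log2 fold change 0.24, adjusted p = 0.341).

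Clock genes had estimates in both directions, with a median of 0.00. Per1, which neuronal activity also induces, had 9.19, 10.3, 18.4, 13.4 and 13.5 CPM in wild types and 7.88, 6.41, 8.81, 8.98 and 9.12 CPM in heterozygotes. Every heterozygote was below every wild type (log2 fold change -0.66, edgeR, adjusted p = 0.251). Dbp, an output factor of the clock, had 46.5, 32.5, 55.0, 37.7 and 28.1 CPM in wild types and 35.7, 58.9, 63.8, 64.4 and 54.1 CPM in heterozygotes and overlapped (log2 fold change 0.47, adjusted p = 0.388). The hour of death is not among the labels, and its part was not tested.

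Esyt1 and Itga7, both on chromosome 10 and chosen after their values were seen, had lower levels in heterozygotes within each form of name, under the minimum of the naming rule. Esyt1, a tether between endoplasmic reticulum and plasma membrane, had 4.08, 3.27, 3.25, 2.58 and 4.98 CPM in wild types and 0.984, 0.986, 1.52, 1.498 and 1.66 CPM in heterozygotes, with no overlap (log2 fold change -1.42, SE 0.30, edgeR, adjusted p = 0.144). Itga7, a laminin-binding integrin, had 3.83, 1.01, 2.71, 3.10 and 3.22 CPM in wild types and 0.984, 0.822, 0.608, 1.12 and 1.35 CPM in heterozygotes (log2 fold change -1.43, SE 0.36, adjusted p = 0.209).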
